A study of Arabidopsis thaliana with 72 samples.

Results

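CL_HM3 is one of the inbred Hybrid Mimic lines of Arabidopsis thaliana that were drawn from a cross between the accessions Col and Ler. It was chosen by its label, and it is represented by 3 of the 72 RNA-seq libraries of the series, which fall into 24 groups of 3 libraries. Hybrid Mimics are lines in which plants resembling the large F1 hybrid were picked again in each selfed generation, here for rosette diameter with flowering inside the range of the parents, so that the F7 plants are nearly homozygous and still large. Rosette leaves were taken at an age of 25 days after sowing from plants grown under long days, first on plates and then in soil. Each CL_HM3 library came from 1 F7 plant, so the 3 libraries are sister plants of 1 line, whereas each Col, Ler and F1 library pooled 3 plants. No transgene or treatment separated the groups. The p-values below rest, for each gene, on 1 spread shared by all Col/Ler groups in the fit. These include the F1 hybrids, both cross directions as 1 group, and the small lines cl_sml1 and cl_sml2. The small lines were selected from the same cross for small size, with 1 plant per library.

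The comparison asked which genes a stabilised Hybrid Mimic expresses at a level other than the mean of its parents. That mean, the mid-parent value (MPV), was built as 3 libraries, each the sum of 1 Col and 1 Ler library after scaling to a common size. Each MPV library thus holds more plants than a CL_HM3 library, but the fit gave both the same spread. A hybrid holds both parental alleles at every locus and often lies near the MPV, but an inbred line carries 1 parental allele at nearly every locus. A gene that differs between Col and Ler can therefore depart from the MPV in CL_HM3 while staying at the level of 1 parent. For that reason each result is set beside Col and Ler separately, and beside CL_HM1, CL_HM2 and CL_HM4, the other Hybrid Mimics of this cross that the study kept (3 libraries each, 1 plant per library). Values are normalized counts, that is, read counts scaled to a common library size, and a gene was called at an edgeR adjusted p at or under 0.05.

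The CL_HM3 libraries held 20024038 to 22288710 counted reads, the Col libraries 19878340 to 20551711 and the Ler libraries 19941341 to 28527725, within the 17741358 to 28527725 of all 72 libraries. Leaf mesophyll markers were abundant in each group, and their summed level of 1693881 to 2111817 normalized counts in CL_HM3 overlapped the 1696252 to 1938170.2 in Col and the 1395067 to 1858008 in Ler. Markers of flower, pollen and seed, and root were mostly too low to test, with 3 of 16, 2 of 14 and 4 of 12 passing the filter. Ler replicate 3, the deepest parent library, stood furthest from its sister libraries. In results without 1 library, MPV replicate 3 stands for Col replicate 3 and Ler replicate 3 together.

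**Figure D1:**
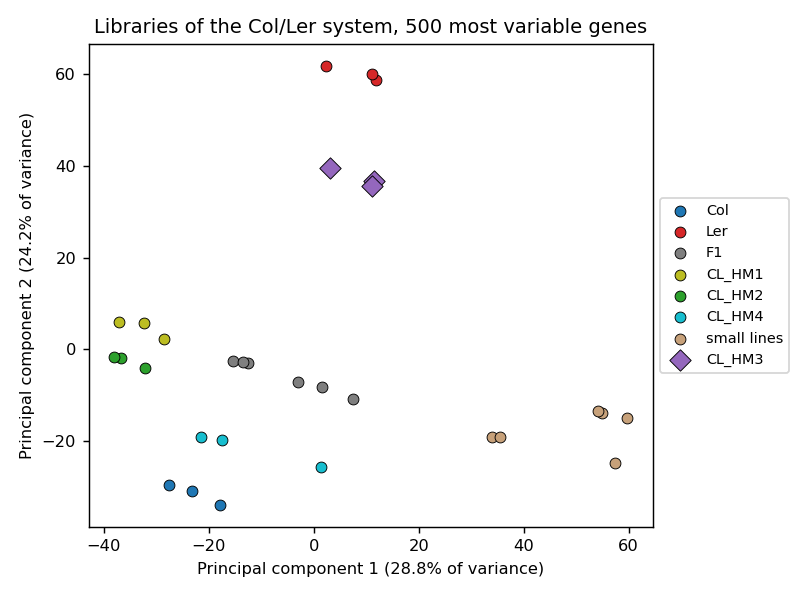
Principal component scores of the Col/Ler libraries from the 500 most variable genes, with PC1 (28.8% of the variance) on the x axis, PC2 (24.2%) on the y axis and 1 point per library, the small lines selected from the same cross included. On PC2 the CL_HM3 libraries lie between 35.7 and 39.6, below Ler (58.8 to 61.8) and above the other Hybrid Mimics (-25.6 to 6.0), the F1 hybrids (-10.8 to -2.7) and Col (-34.0 to -29.6).

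On the second component the 3 CL_HM3 libraries sat nearer to Ler than any library of the other Hybrid Mimics or of the F1 hybrids did. Against the MPV, 4644 of 17919 genes tested (25.9%) were called in CL_HM3, 2086 higher (11.6%) and 2558 lower (14.3%). Most of these differences were small, with a median absolute log2 fold change of 0.56 among the called genes, and 297 called genes were at least 2-fold higher and 642 at least 2-fold lower. MPV replicate 3 carried much of the count, since without it 2474 genes were called, 901 higher and 1573 lower. Against the same MPV libraries, 2614 genes (14.6%) were called in CL_HM1, 3222 (18.0%) in CL_HM2 and 4279 (23.9%) in CL_HM4, of which 1433 (8.0%), 1750 (9.77%) and 2150 (12.0%) were lower. These comparisons share the MPV libraries, so their counts stand side by side only.

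Fewer genes lay outside both parents. Of 17579 genes tested with Col and Ler as separate groups, 1390 (7.91%) were called against Col and against Ler in the same direction, 510 higher (2.9%) and 880 lower (5.01%). CL_HM3 differed from Col at 5845 genes (33.2%) and from Ler at 3559 (20.2%). Among the genes called against the MPV, 2230 were called against Col but not Ler and 899 against Ler but not Col. The number outside both parents leaned on single libraries, falling to 787 when CL_HM3 replicate 2 was left out and to 792 for Ler replicate 3, and rising to 2113 for Ler replicate 1. It was 661 when the fit held only the groups compared. Without any test, all CL_HM3 libraries lay beyond all 6 parent libraries at 2756 genes (15.7%), 1322 above (7.52%) and 1434 below (8.16%).

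Among the genes furthest below both parents were a non-coding RNA and the flowering genes FT and SEP4, with the F-box gene AT3G18320, described next, between FT and SEP4 by fold change. The transcript AT3G06355, an RNA of unknown role, was at 4.21, 1.01 and 3.03 normalized counts in the 3 CL_HM3 libraries, 171, 128 and 124 in Col and 21.7, 33.2 and 52.8 in Ler (log2 fold change -4.93, SE 0.32, edgeR adjusted p = 5.6e-11 against the MPV). FLOWERING LOCUS T (FT), the mobile flowering signal made in leaf phloem, was at 3.16, 2.02 and 5.05 in CL_HM3, 40.5, 43.9 and 96.2 in Col and 226, 60.0 and 124 in Ler (-4.81, SE 0.50, edgeR adjusted p = 2.1e-07). SEPALLATA4 (SEP4), a MADS-box factor of floral organ identity, was at 26.3, 15.1 and 21.2 in CL_HM3, 377, 336 and 375 in Col and 104, 81.5 and 75.6 in Ler (-3.40, SE 0.14, edgeR adjusted p = 1.2e-14). For AT3G06355, FT and SEP4 each CL_HM3 library lay below every parent library.

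Other genes were also called below both parents. The F-box gene AT3G18320 was at 7.37, 7.06 and 5.05 in CL_HM3, 109, 139 and 147 in Col and 16.8, 19.3 and 15.4 in Ler (-3.47, SE 0.18, edgeR adjusted p = 5.8e-13). RLP33, a receptor-like protein, was at 7.37, 10.1 and 15.2 in CL_HM3, 221, 181 and 213 in Col and 34.5, 22.5 and 15.4 in Ler (-3.35, SE 0.27, edgeR adjusted p = 2.9e-09). The methyltransferase gene AT1G15125 was at 27.4, 62.5 and 66.6 in CL_HM3, 578, 466 and 814 in Col and 116, 123 and 599 in Ler (-3.07, SE 0.49, edgeR adjusted p = 8.9e-05). In RLP33 the highest CL_HM3 library lay just under the lowest Ler library, while AT3G18320 and AT1G15125 were further from the parents. GLN1;4, a cytosolic glutamine synthetase that assimilates ammonium, was even across the CL_HM3 plants at 68.5, 66.6 and 69.7, against 246, 276 and 342 in Col and 298, 285 and 630.0 in Ler (-2.33, SE 0.29, edgeR adjusted p = 2.9e-06), and it was also called lower in CL_HM1, CL_HM2 and CL_HM4.

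Of the 8 genes furthest above both parents, 2 encode late embryogenesis abundant (LEA) proteins, 3 encode mitochondrial or oxidase proteins and 3 are pseudogenes or of no described function. LEA proteins protect cells during drying and mark seeds and water-stressed tissue. The LEA gene AT3G02480 was at 552, 637 and 674 in CL_HM3, 86.3, 34.0 and 4.42 in Col and 0, 7.5 and 19.5 in Ler (4.68, SE 1.41, edgeR adjusted p = 0.018), and AT3G17520, another LEA gene, was at 40.0, 264 and 91.9 in CL_HM3, 7.46, 3.29 and 0 in Col and 0.990, 0 and 11.4 in Ler (5.08, SE 1.42, edgeR adjusted p = 0.012). The groups did not overlap for either gene. AT3G02480 was also high elsewhere, at 13.5, 14.5 and 623 in CL_HM4 and 41.6 to 947 (median 393) over the 6 F1 libraries. Its call against the MPV was lost without MPV replicate 2 (edgeR adjusted p = 0.055) or MPV replicate 3 (0.086 by the same test), and that of AT3G17520 without CL_HM3 replicate 2 (0.059). Pollen and seed markers, which include seed storage proteins, had summed levels of 15.1 to 41.1 in CL_HM3, 21.0 to 29.6 in Col and 2.96 to 11.8 in Ler. At these low levels the 2 tested markers had a median log2 fold change of 4.48 against the MPV and 3.93 against the other lines. Neither marker was called in either comparison. Their part in the LEA result was not tested.

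Another 3 of them, AOX1D, PHT3;2 and AO4, were high in CL_HM3 replicates 1 and 3 and lower in replicate 2. AOX1D, the mitochondrial alternative oxidase 1D, was at 399, 58.5 and 381 in CL_HM3, 19.2, 2.19 and 28.8 in Col and 19.7, 11.8 and 17.1 in Ler (4.07, SE 1.40, edgeR adjusted p = 0.035). PHT3;2, a mitochondrial phosphate carrier, was at 293, 45.4 and 328 in CL_HM3, 20.2, 5.48 and 13.3 in Col and 15.8, 5.36 and 22.8 in Ler (4.01, SE 1.12, edgeR adjusted p = 0.011), and AO4, an aldehyde oxidase, was at 128, 27.2 and 211 in CL_HM3, 17.1, 2.19 and 3.32 in Col and 3.95, 6.43 and 15.4 in Ler (3.93, SE 1.24, edgeR adjusted p = 0.023). PHT3;2 was called in every fit that left out 1 library. AOX1D was not called without CL_HM3 replicate 1, MPV replicate 1, MPV replicate 2, CL_HM3 replicate 3 or MPV replicate 3, and AO4 not without MPV replicate 1, MPV replicate 2, CL_HM3 replicate 3 or MPV replicate 3 (edgeR adjusted p up to 0.086). The largest rises at genes not called outside both parents, in AT2G42560, NADP-ME1, LEA4-5, KTI1, SDR4 and GSTU11, had log2 fold changes of 2.77 to 4.85, and each lost its call without MPV replicate 2 or MPV replicate 3. Without CL_HM3 replicate 3 all 6 lost it, without CL_HM3 replicate 1 AT2G42560, NADP-ME1, SDR4 and GSTU11 did, without CL_HM3 replicate 2 NADP-ME1, LEA4-5 and KTI1, and without MPV replicate 1 AT2G42560, NADP-ME1, LEA4-5 and SDR4.

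The remaining large rises lay in genes with no described function. AT5G37665, annotated as a pseudogene, was at 226, 142 and 130.2 in CL_HM3, 0 in all 3 Col libraries and 37.5, 10.7 and 8.13 in Ler (4.1, SE 0.49, edgeR adjusted p = 7.3e-05), and it had no reads in the 9 libraries of the other Hybrid Mimics. AT5G43105, another pseudogene, was at 331, 386 and 338 in CL_HM3, 0, 1.1 and 0 in Col and 85.9, 0 and 0 in Ler (4.56, SE 0.76, edgeR adjusted p = 3.0e-04). AT4G12735 reached 119, 8.07 and 58.6, and its call was lost without CL_HM3 replicate 1, MPV replicate 1, MPV replicate 2 or MPV replicate 3. Reads of pseudogenes can come from near-identical copies, so these values are uncertain.

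Flowering is set by a leaf pathway in which day length, read through the clock, FKF1 and GIGANTEA (GI), raises FT, and FT with its partners turns on SOC1, FUL, the SPL factors and the SEPALLATA genes. Of 11 tested promoters of flowering, 8 were called lower than the MPV in CL_HM3 and 0 higher, and 5 of those lay outside both parents. Over all genes tested, 14.3% were lower than the MPV and 5.01% lay below both parents. The median log2 fold change of the list was -1.27, beside -0.01 over all genes tested. In CL_HM1, CL_HM2 and CL_HM4 the same list gave 4, 5 and 3 called lower against the shared MPV libraries. Against the other lines 5 members were lower in CL_HM3 and 0 higher, beside 13.7% of all genes lower.

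FT, described above, was lowest in CL_HM3, with means of 11.1 in CL_HM1, 9.99 in CL_HM2 and 74.5 in CL_HM4 (log2 fold change -2.53, SE 0.60, edgeR adjusted p = 0.0027 against the mean of the other lines, a call lost when CL_HM4 was left out of that mean). TSF, its close relative, was near 0 in CL_HM3 (1.05, 1.01 and 0) and in Col (0, 0 and 1.11) and was at 65.2, 8.57 and 13.0 in Ler. FKF1, the blue-light receptor that opens the FT pathway, was at 51.6, 54.5 and 93.9 in CL_HM3, 432, 300.4 and 664 in Col and 139, 21.4 and 456 in Ler (-2.30, SE 0.34, edgeR adjusted p = 3.1e-05 against the MPV), so that the CL_HM3 libraries overlapped Ler, whose 3 libraries were far apart. Both FT and FKF1 sit at the leaf end of the pathway.

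SPL4, a promoter of the floral transition, was at 92.7, 95.8 and 116 in CL_HM3, 349.6, 497 and 468 in Col and 347, 221 and 403 in Ler (-1.89, SE 0.16, edgeR adjusted p = 8.0e-09). SOC1, which integrates flowering signals, was at 1216, 1316 and 1422 in CL_HM3, 1866, 1646 and 2131 in Col and 2388, 2789.8 and 5005 in Ler (-0.98, SE 0.16, edgeR adjusted p = 1.6e-04). In both genes all CL_HM3 libraries lay below all parent libraries, and both were also called lower in each of the other 3 lines. AGL42 (-2.13, SE 0.50, edgeR adjusted p = 0.0036), GI (-0.53, SE 0.11, edgeR adjusted p = 0.0015) and FUL (-1.27, SE 0.34, edgeR adjusted p = 0.0089) completed the list, and the call of FUL was lost without CL_HM3 replicate 1 or MPV replicate 3.

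The 3 tested floral markers, SEP1, SEP3 and SEP4, were all lower in CL_HM3 than in either parent. The summed level of all 16 flower and floral meristem markers, tested or not, was 67.7 to 91.6 normalized counts in CL_HM3, 527 to 639 in Col, 228 to 258 in Ler, 287 to 337 in CL_HM1, 340.1 to 379 in CL_HM2 and 349 to 407 in CL_HM4, with no overlap between CL_HM3 and any other group. Most of this sum in CL_HM1, CL_HM2 and CL_HM4 was SEP4, so the gap to those lines does not describe the other markers. Against those lines 1 of the 3 tested markers was called lower and 0 higher. SEP4, given above, had means of 265, 297 and 296 in CL_HM1, CL_HM2 and CL_HM4 (log2 fold change -3.77, SE 0.14, edgeR adjusted p = 8.0e-17 against their mean), and SEP1, a relative, was at 1.05, 3.03 and 7.07 in CL_HM3 (-3.07, SE 0.67, edgeR adjusted p = 0.0020 against the MPV). SEP3, at 22.1, 18.1 and 13.1 in CL_HM3, 91.7, 119.5 and 159 in Col and 88.8, 55.7 and 95.9 in Ler (-2.49, SE 0.34, edgeR adjusted p = 1.4e-05), had means of 12.7, 18.0 and 49.5 in CL_HM1, CL_HM2 and CL_HM4, and its difference from them did not pass the test (-0.33, SE 0.32, edgeR adjusted p = 0.47). Fewer cells of floral tissue in a rosette sample and less RNA per cell cannot be told apart in bulk libraries.

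Of 12 phloem and xylem markers, which include those of the companion cells that make FT, 2 were called lower and 0 higher, a share close to the 14.3% of all genes called lower. The list had a median log2 fold change of -0.18, and its summed level was 10370.1 to 11965 in CL_HM3, 14389 to 15374 in Col and 13496 to 17829 in Ler. SUC2, the companion-cell sucrose transporter, had a log2 fold change of -0.60, SE 0.17, edgeR adjusted p = 0.013, a call lost without CL_HM3 replicate 1, and APL, a phloem identity factor, one of -0.66, SE 0.16, edgeR adjusted p = 0.0058. Both were called lower in CL_HM1, CL_HM2 and CL_HM4 as well. Their part in the FT result was not tested. Among repressors of flowering 2 of 16 were higher and 1 lower, beside 11.6% of all genes higher and 14.3% lower. TOE2, an AP2-type repressor of FT, was lower (-0.51, SE 0.08, edgeR adjusted p = 7.3e-05), while the higher calls of FLM and FRI were lost without any of CL_HM3 replicate 1, CL_HM3 replicate 2, MPV replicate 1, MPV replicate 2 or MPV replicate 3.

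**Figure D2:**
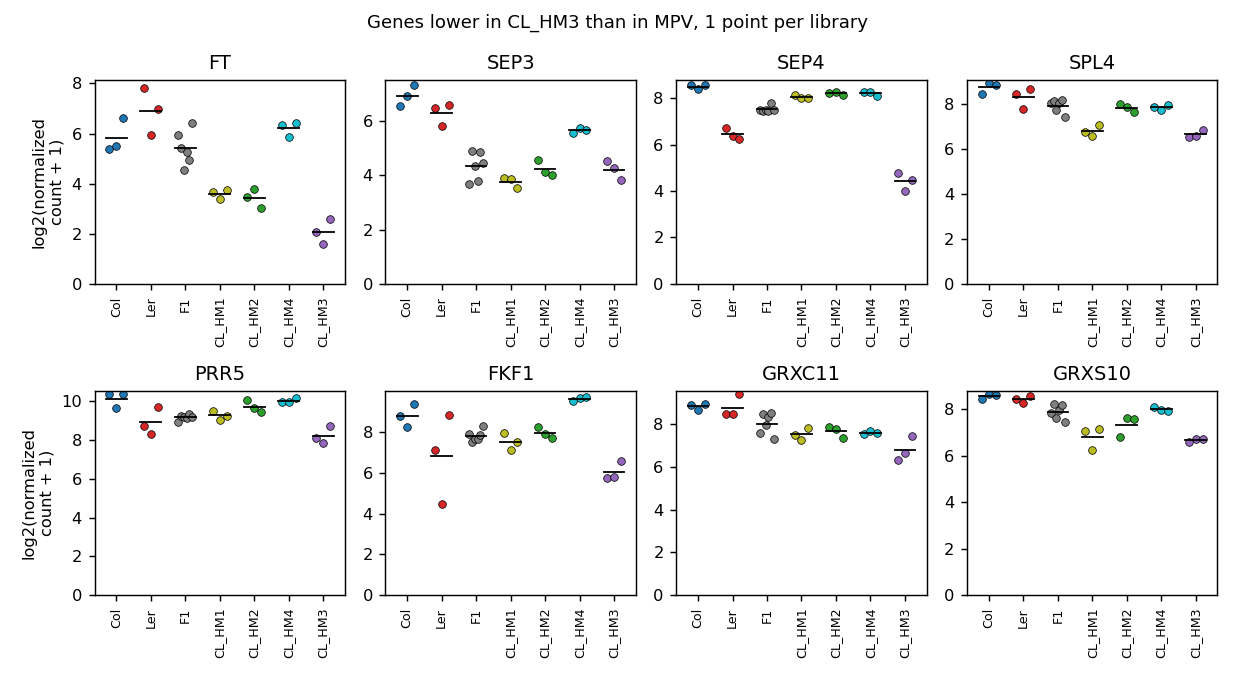
Levels of 8 genes called lower in CL_HM3 than in the MPV, as log2 of the normalized count plus 1 on the y axis, by group on the x axis, with 1 point per library and a bar at the group mean of the points. The CL_HM3 points of FT and SEP4 lie below every point of the parents, the F1 hybrids and the other Hybrid Mimics, whereas SEP3 and GRXS10 are low in several lines.

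The circadian clock is a loop of morning and evening genes that repress each other and that set the daily window for FKF1 and GI. Of 21 clock genes tested, 9 were lower than the MPV in CL_HM3 and 0 higher, and 6 lay below both parents. Of all genes tested, 14.3% were lower than the MPV and 5.01% lay below both parents. Against the same MPV libraries, 4 clock genes were lower and 0 higher in CL_HM1, 5 and 1 in CL_HM2, and 5 and 6 in CL_HM4. The paper gives a collection window in the light period, not the hour of each library. The part of sampling hour in these calls was not tested. After FKF1, given above, PRR5 and LUX had the lowest log2 fold changes of the called members. PRR5, an afternoon repressor, was at 271, 229.9 and 424 in CL_HM3, 1341, 808 and 1310.2 in Col and 424, 313 and 828 in Ler (-1.42, SE 0.21, edgeR adjusted p = 3.0e-05). LUX, of the evening complex, was at 196, 137 and 240.3 in CL_HM3, 498, 389 and 578 in Col and 371, 262 and 464 in Ler (-1.14, SE 0.17, edgeR adjusted p = 2.9e-05). CL_HM3 lay below all Col libraries for both genes, and below all Ler libraries for LUX.

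TOC1 (-0.75, SE 0.12, edgeR adjusted p = 1.3e-04) and ELF3 (-0.56, SE 0.10, edgeR adjusted p = 4.3e-04), also evening genes, fell by less. Against the other lines the clock list was split, with 6 genes lower and 5 higher in CL_HM3. Of all genes, 13.7% were lower and 12.6% higher there. The lower clock genes included LUX (-1.21, SE 0.15, edgeR adjusted p = 1.6e-06), PRR5 (-1.41, SE 0.22, edgeR adjusted p = 3.2e-05) and TOC1 (-0.84, SE 0.12, edgeR adjusted p = 6.3e-06). The 5 higher ones are not named here.

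CC-type glutaredoxins, small redox proteins found in land plants of which several respond to nitrate, were mostly lower. Of 15 tested, 10 were lower than the MPV and 0 higher, with 9 below both parents and a median log2 fold change of -0.86. Over all genes the shares were 14.3% lower and 5.01% below both parents. GRXC11 was at 80.0, 102 and 173 in CL_HM3, 478, 409 and 493 in Col and 353, 363 and 678 in Ler (-1.94, SE 0.28, edgeR adjusted p = 2.3e-05), GRXS10 at 96.9, 106 and 105 in CL_HM3, 343, 405 and 393 in Col and 344, 312 and 377 in Ler (-1.80, SE 0.22, edgeR adjusted p = 2.9e-06), and GRXS7 at 59.0, 58.5 and 92.9 in CL_HM3, 138, 111 and 200.1 in Col and 290.2, 296 and 233 in Ler (-1.58, SE 0.30, edgeR adjusted p = 5.3e-04). No CL_HM3 library reached a parent library in any of the 3 genes. The other lines showed the fall too, with 10 members lower in CL_HM1, 12 in CL_HM2 and 6 in CL_HM4 against the same MPV libraries, and the median against those lines was 0.02.

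Nitrate-response genes were lower in CL_HM3 at 8 of 15, with 0 higher, beside 14.3% of all genes lower. The other lines showed this too, with 7 lower and 0 higher in CL_HM1, 8 and 0 in CL_HM2, and 8 and 2 in CL_HM4. The list differs between the parents, being called higher in Ler than in Col at 10 members. Just 1 member lay outside both parents, beside 7.91% of all genes. BT2, a nitrate-responsive scaffold protein, was at 184, 181 and 719 in CL_HM3, 681, 344 and 451 in Col and 1958, 3930.1 and 3211 in Ler (-2.27, SE 0.40, edgeR adjusted p = 2.9e-04), a level that overlapped Col. NRT1.5, which loads nitrate into the xylem, was that member, at 364, 387 and 503 in CL_HM3, 1009, 974 and 945 in Col and 1471, 822 and 460.1 in Ler (-1.17, SE 0.23, edgeR adjusted p = 9.2e-04), with 1 Ler library inside the range of CL_HM3. UPM1, of the siroheme path, stood at -0.84, SE 0.17, edgeR adjusted p = 0.0013, and the call of NIA2, the main leaf nitrate reductase, was lost without CL_HM3 replicate 1, MPV replicate 1, CL_HM3 replicate 2, MPV replicate 2 or MPV replicate 3.

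Genes of sulfur, phosphate and iron status gave 8 lower and 3 higher of 30, beside 14.3% of all genes lower and 11.6% higher. SULTR1;2, a high-affinity sulfate transporter, was at 43.2, 56.5 and 45.4 in CL_HM3, 233, 205 and 219 in Col and 98.7, 75.0 and 134 in Ler (-1.71, SE 0.29, edgeR adjusted p = 2.2e-04), below every parent library. PHO1;H1, a phosphate exporter, had a log2 fold change of -0.97, SE 0.16, edgeR adjusted p = 1.5e-04, and FRO3, a mitochondrial ferric reductase, was at 291, 348 and 277, near its Ler level of 318, 355 and 404 and below its Col level of 1096, 1296 and 979.6. SQD1, a sulfolipid synthesis enzyme, was higher (0.43, SE 0.10, edgeR adjusted p = 0.0026). The list leaned on single libraries, with 2 higher and 5 lower without CL_HM3 replicate 2, 2 and 4 without MPV replicate 2, 1 and 4 without CL_HM3 replicate 3, and 1 and 5 without MPV replicate 3.

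Flavonoid and anthocyanin genes build the UV-screening and red pigments of leaves. Of 15 tested, 9 were higher than the MPV and 1 lower, with a median log2 fold change of 1.0, beside 11.6% of all genes higher. Against the other lines 6 members were higher and 0 lower, beside 12.6% of all genes higher. Without any 1 library that count was 1 to 8 higher. Here the Ler libraries differed among themselves. DFR, a late anthocyanin enzyme, was at 335, 524 and 323 in CL_HM3, 61.8, 20.8 and 56.4 in Col and 289, 212 and 69.1 in Ler (1.73, SE 0.59, edgeR adjusted p = 0.034). TT4, the chalcone synthase that opens the path, was at 1694, 2796 and 2403 in CL_HM3, 1061, 924 and 1350.0 in Col and 1442, 1398 and 623 in Ler (1.03, SE 0.27, edgeR adjusted p = 0.0085), so that every CL_HM3 library exceeded every parent library.

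UGT78D1, a flavonol rhamnosyltransferase, was at 1147, 1151 and 1019.8 in CL_HM3, 498, 575 and 552 in Col and 599, 638 and 490.2 in Ler (1.0, SE 0.15, edgeR adjusted p = 4.7e-05). It was called in every fit that left out 1 library and also higher in CL_HM1, CL_HM2 and CL_HM4. UGT79B1, an anthocyanin glycosyltransferase, and LDOX, the step after DFR, stood at 2.24 and 1.85, and both calls were lost without CL_HM3 replicate 2 or MPV replicate 3, that of LDOX also without CL_HM3 replicate 1. Leaving out CL_HM3 replicate 2 or MPV replicate 3 left 2 members of the list higher and 0 lower. The call of TT4 was lost without MPV replicate 3, that of DFR without CL_HM3 replicate 1, CL_HM3 replicate 2, MPV replicate 2 or MPV replicate 3, that of TT19 without any of the 6 libraries, and TTG1 was the member called lower (-0.28, SE 0.09, edgeR adjusted p = 0.031), lost without CL_HM3 replicate 1, CL_HM3 replicate 2, CL_HM3 replicate 3 or MPV replicate 3.

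Glucosinolates are sulfur-rich defence compounds, and myrosinases split them after wounding into products that specifier proteins direct toward nitriles. Of 10 genes of this breakdown, 6 were higher than the MPV and 1 lower, against 5 higher and 2 lower beside the other lines. Over all genes, 11.6% were higher than the MPV and 12.6% higher than the other lines. The epithiospecifier protein ESP was at 139936, 148587 and 145386 in CL_HM3, 1805, 1272 and 1770.2 in Col and 84313, 92484 and 86382 in Ler (1.69, SE 0.19, edgeR adjusted p = 7.6e-07), above both parents. Its mean was 122096 in CL_HM1, 91123 in CL_HM2 and 1834 in CL_HM4, the last at the level of Col. ESM1, which opposes nitrile formation, was at 1265, 1658 and 1419 in CL_HM3, 19352, 28269 and 28130.3 in Col and 1644, 1428 and 1015 in Ler (-3.17, SE 0.17, edgeR adjusted p = 8.1e-13), a Ler level that CL_HM4 shared.

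The myrosinase TGG2 carried the other parent's level. It was at 29232, 23313 and 53675 in CL_HM3, 29379, 27203 and 27874 in Col and 43.4, 45.0 and 29.3 in Ler (1.36, SE 0.25, edgeR adjusted p = 4.5e-04), and CL_HM1 averaged 227. TGG1, the other leaf myrosinase, was at 55495, 51600.3 and 83421 in CL_HM3 (0.59, SE 0.17, edgeR adjusted p = 0.015). MBP1, a myrosinase-binding protein, was at 2778, 1999 and 3668 in CL_HM3, 1532, 805 and 1539 in Col and 714, 863 and 2009 in Ler (1.2, SE 0.34, edgeR adjusted p = 0.013). CL_HM3 replicate 3 was the highest library for TGG1, TGG2, NSP4, MBP1 and MBP2, and without it 2 members were higher and 1 lower, with the calls of TGG1, NSP4, MBP1 and MBP2 lost. The call of TGG1 was also lost without MPV replicate 3, that of MBP1 without MPV replicate 2, and that of MBP2 without CL_HM3 replicate 1, MPV replicate 1, MPV replicate 2, CL_HM3 replicate 3 or MPV replicate 3.

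Synthesis of aliphatic glucosinolates gave 10 lower and 0 higher of 24, and the indole and camalexin list 1 lower of 15. Of all genes tested, 14.3% were lower. Against the same MPV libraries the aliphatic list gave 4 lower and 3 higher in CL_HM1, 4 and 2 in CL_HM2, and 13 and 1 in CL_HM4. At 2 of the 10 lower in CL_HM3 the level lay below both parents, beside 5.01% of all genes. IPMI2, an isomerase of side-chain elongation, was one of them, at 2941, 1499 and 2427 in CL_HM3, 4285, 4575 and 4257 in Col and 9729, 7170.0 and 5335 in Ler (-1.36, SE 0.27, edgeR adjusted p = 8.1e-04). MAM3, the synthase for long side chains, was at 637, 505 and 439 in CL_HM3, 742, 681 and 684 in Col and 12954, 7995 and 6546 in Ler, and AOP3, a side-chain dioxygenase, was at 0, 2.02 and 19.2 in CL_HM3, 3.20, 11.0 and 9.95 in Col and 21939.5, 20631 and 15514 in Ler. In MAM3 and AOP3 CL_HM3 was at or near the Col level. CYP79F1, which opens core synthesis, was at 8056, 3372 and 6990.2 in CL_HM3 (-0.92, SE 0.34, edgeR adjusted p = 0.045, lost without MPV replicate 1, CL_HM3 replicate 2, MPV replicate 2, CL_HM3 replicate 3 or MPV replicate 3). Without CL_HM3 replicate 2, the lowest of the line in the summed level of the list, 5 members were lower, and without MPV replicate 1 there were 6.

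Salicylic acid is the hormone of local and systemic resistance to biotrophic pathogens, and the pathogenesis-related (PR) genes PR1, PR2 and PR5 report its action. Of 5 PR genes, 3 were higher than the MPV in CL_HM3 and 0 lower, beside 11.6% of all genes higher, and PR3 and PR4 were not called. PR1 was at 3480.5, 2896 and 775 in CL_HM3, 103, 152 and 527 in Col and 1106, 85.7 and 818 in Ler (2.35, SE 0.74, edgeR adjusted p = 0.022). PR2, a glucanase, was at 9480.0, 10859 and 3814 in CL_HM3, 679, 724 and 1619 in Col and 4185, 1025 and 3814 in Ler (2.01, SE 0.51, edgeR adjusted p = 0.0063), and PR5, a thaumatin-like protein, at 5664, 5011 and 2035 in CL_HM3, 342, 531 and 999.5 in Col and 2034, 519 and 1302 in Ler (2.15, SE 0.42, edgeR adjusted p = 8.0e-04). CL_HM3 replicate 3 was the lowest of the line in each, and it fell within the range of Ler for PR1 and PR2 and was level with the highest Ler library for PR5. The call of PR1 was lost without CL_HM3 replicate 1, CL_HM3 replicate 2 or MPV replicate 2, and those of PR2 and PR5 held in each such fit.

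The 21 genes of salicylic acid and systemic resistance gave 6 higher and 0 lower, and 2 higher without MPV replicate 2. Of all genes tested, 11.6% were higher. Against the same MPV libraries the list gave 0 higher and 2 lower in CL_HM1, 5 and 1 in CL_HM2, and 5 and 2 in CL_HM4. DMR6, a hydroxylase that removes salicylic acid, was at 2076, 2367 and 1862 in CL_HM3, 646, 903 and 965 in Col and 1055, 513 and 987 in Ler (1.33, SE 0.25, edgeR adjusted p = 6.1e-04), and its call held in every such fit. SNC1, a resistance receptor, and ACD6, an ankyrin protein that promotes resistance, were at the Col level, SNC1 at 4291, 5009.6 and 4484 against 5045, 4835 and 5476 in Col and 1048, 1094 and 1214 in Ler (0.59, SE 0.10, edgeR adjusted p = 2.5e-04). The call of ACD6 was lost without CL_HM3 replicate 2, MPV replicate 2 or CL_HM3 replicate 3. FMO1, an enzyme of the systemic signal, was at 148, 15.1 and 11.1, with 1 plant far above the rest, and its call was lost without CL_HM3 replicate 1, MPV replicate 1, MPV replicate 2 or MPV replicate 3.

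**Figure D3:**
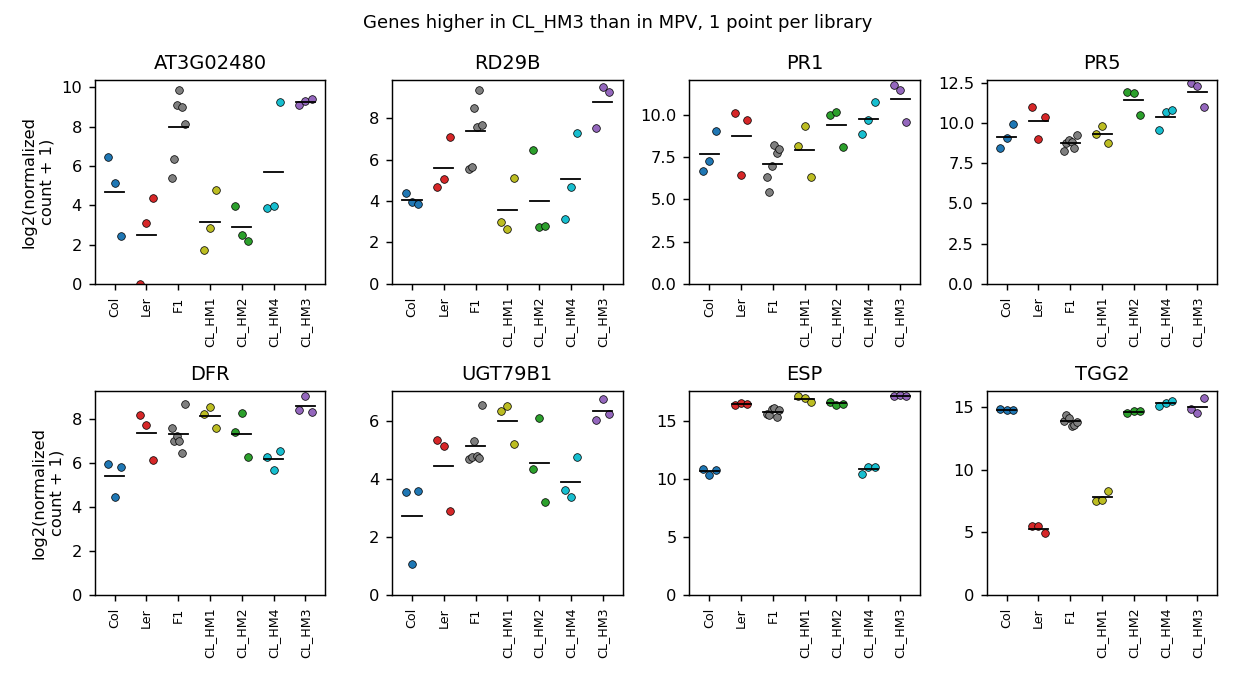
Levels of 8 genes called higher in CL_HM3 than in the MPV, as log2 of the normalized count plus 1 on the y axis, by group on the x axis, with 1 point per library and a bar at the group mean of the points. The scatter within CL_HM3 and within the parents is wide for several of them, and PR1 of CL_HM3 replicate 3 lies among the Ler points.

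WRKY factors, a family with many regulators of defence, gave 1 higher and 8 lower of 52, a lower share close to the 14.3% of all genes. The split was 0 and 5 without MPV replicate 3 and 6 and 11 with the MPV on the log scale. WRKY13, called in every fit that left out 1 library, was at 29.5, 16.1 and 30.3 in CL_HM3, 83.1, 91.0 and 61.9 in Col and 86.9, 54.7 and 37.4 in Ler (-1.43, SE 0.30, edgeR adjusted p = 0.0016). Jasmonate genes gave 2 higher and 2 lower of 29, under the 11.6% and 14.3% of all genes. They gave 6 higher and 5 lower when the fit held only the groups compared. ORA59, an ethylene and jasmonate response factor, was at 12.6, 9.08 and 8.08 in CL_HM3, 62.9, 35.1 and 54.2 in Col and 42.5, 22.5 and 41.5 in Ler (-2.09, SE 0.48, edgeR adjusted p = 0.0031), and MYC3, a jasmonate transcription factor, at 2565, 2568 and 2395 in CL_HM3, 1441, 1181 and 1350.0 in Col and 1687, 1219.7 and 1360.1 in Ler (0.88, SE 0.09, edgeR adjusted p = 1.1e-07). For both genes the CL_HM3 libraries were clear of all parent libraries. The other lower call, PDF1.2b, was lost without CL_HM3 replicate 1, CL_HM3 replicate 3 or MPV replicate 3, and AOC1, the other higher one, without CL_HM3 replicate 1, MPV replicate 1, MPV replicate 2, CL_HM3 replicate 3 or MPV replicate 3.

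Cell wall genes gave calls in both directions against the MPV, where 11.6% of all genes tested were higher and 14.3% lower. Cellulose is made at the plasma membrane by CESA complexes, and 2 of 9 tested CESA genes were higher and 0 lower. CESA6, a subunit of primary walls, was at 7163, 7646 and 6628 in CL_HM3, 5545, 6280.4 and 5791 in Col and 4914, 5807 and 4874 in Ler (0.38, SE 0.10, edgeR adjusted p = 0.0094), and CESA5 had a log2 fold change of 0.39, SE 0.11, edgeR adjusted p = 0.012, lost without MPV replicate 3. Genes of nucleotide sugars for wall polymers gave 3 higher and 2 lower of 17, alpha-expansins, which loosen walls, 1 and 2 of 13, and XTH genes, which cut and rejoin xyloglucan, 1 and 2 of 24. XTH8 was higher (1.09, SE 0.25, edgeR adjusted p = 0.0028), and of the expansins EXPA3 was higher (0.67, SE 0.17, edgeR adjusted p = 0.0055) and EXPA1 lower (-0.60, SE 0.15, edgeR adjusted p = 0.0062). Without MPV replicate 3 the XTH list gave 1 higher and 0 lower. The nucleotide sugar list gave 0 to 2 higher and 1 to 2 lower without any 1 of the 6 libraries (CL_HM3 or MPV replicates 1 to 3).

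Against the other Hybrid Mimics, where 13.7% of all genes were lower, 2 of 9 CESA genes, 7 of 17 nucleotide sugar genes, 3 of 24 XTH genes and 1 of 13 alpha-expansins were lower, and 0 of each list were higher. The XTH and expansin shares were under that of all genes. CESA1, a primary-wall subunit, averaged 9758 ± 571 (SD, n = 3) in CL_HM3 and 11160.1, 12538 and 13796 in CL_HM1, CL_HM2 and CL_HM4 (log2 fold change -0.35, SE 0.07, edgeR adjusted p = 6.3e-04). XTH4 was at 1450.1, 1489.7 and 2119 in CL_HM3, 3331, 3856 and 3472 in Col and 1420.5, 2057 and 1055 in Ler, with means of 6709, 5778 and 6437 in the other lines (-1.90, SE 0.21, edgeR adjusted p = 1.1e-07). UXS5, a UDP-xylose synthase, followed (-1.05, SE 0.13, edgeR adjusted p = 5.7e-07), as did AXS1, a UDP-apiose and UDP-xylose synthase (-0.40, SE 0.05, edgeR adjusted p = 8.2e-07).

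Photosynthetic genes were mostly close to the MPV. Of 40 light-harvesting and photosystem genes 5 were lower and 0 higher, a share under the 14.3% of all genes, and 3, 2 and 1 were lower without CL_HM3 replicate 1, CL_HM3 replicate 3 and MPV replicate 3. LHCB2.1, an antenna protein of photosystem II, was at 52760.2, 59167 and 54722 in CL_HM3, 141903, 138829 and 156274 in Col and 47741, 55185 and 72597 in Ler (-0.85, SE 0.11, edgeR adjusted p = 6.1e-06), overlapping Ler. Of 7 Rubisco and carbonic anhydrase genes 2 were higher, beside 11.6% of all genes. Among them was the small subunit RBCS1B (0.78, SE 0.20, edgeR adjusted p = 0.0061), lost without MPV replicate 3. The other was RBCS1A, lost without MPV replicate 1, CL_HM3 replicate 2 or MPV replicate 3, so that 0 members were called without MPV replicate 3.

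Of 24 cold and ABA genes 1 was higher and 0 lower, which is under the share of all genes. RD29B, a dehydration marker, was that gene, at 181, 727 and 617 in CL_HM3, 20.2, 14.2 and 13.3 in Col and 24.7, 32.1 and 134 in Ler (3.68, SE 1.04, edgeR adjusted p = 0.012), above every parent library. Beside 14.3% of all genes lower and 11.6% higher, heat shock genes gave 1 lower of 10, and growth regulators and cell cycle genes 1 higher of 19. That gene, the cyclin CYCA2;3, lost its call without CL_HM3 replicate 1, MPV replicate 1, CL_HM3 replicate 2, CL_HM3 replicate 3 or MPV replicate 3. Against the other lines, 5 heat shock genes were lower and 0 higher, and 6 cold and ABA genes were higher and 1 lower. Of all genes, 13.7% were lower there and 12.6% higher. Without any 1 library, 3 to 5 heat shock genes were lower and 4 to 7 cold and ABA genes higher. The shade and auxin list gave 3 lower and 0 higher of 22, a lower share close to the 14.3% of all genes. It gave 1 lower without CL_HM3 replicate 1 or CL_HM3 replicate 3 and 0 without MPV replicate 3. Senescence genes gave 2 higher and 3 lower of 22, shares close to the 11.6% and 14.3% of all genes. They gave 6 higher and 3 lower both when the fit held only the groups compared and with the MPV on the log scale. GLN1;1, a glutamine synthetase, was one of the lower ones (-0.87, SE 0.18, edgeR adjusted p = 0.0013) beside GLN1;4, and the higher calls of SAG24 and YLS3 were both lost without CL_HM3 replicate 1, CL_HM3 replicate 2 or MPV replicate 2.

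**Figure D4:**
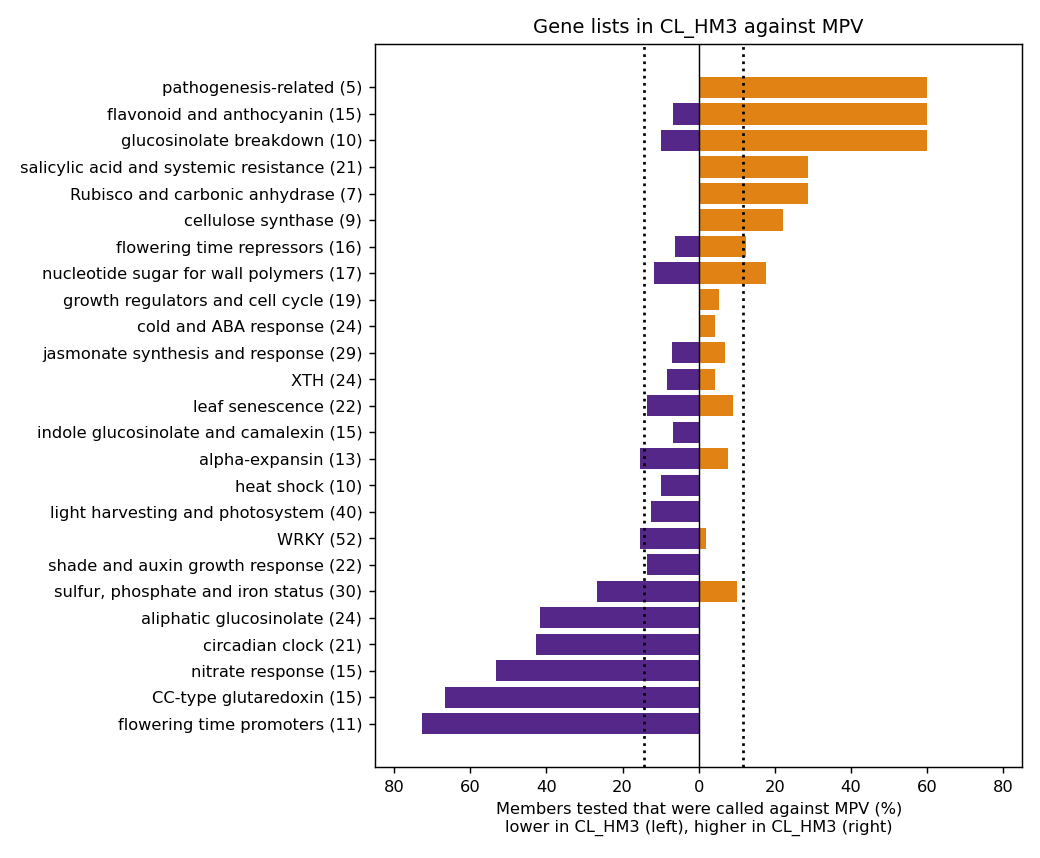
Number of tested genes in each list called higher or lower in CL_HM3 than in the MPV, as a percentage of the list on the x axis, with the lists on the y axis and vertical lines at the share of all genes tested (11.6% higher, 14.3% lower). Flavonoid, PR and glucosinolate breakdown genes extend to the higher side, and flowering promoters, glutaredoxins, nitrate response and clock genes to the lower side.

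At genes with a large parental difference CL_HM3 was mostly at the level of Ler. Of 453 genes called between Col and Ler with at least a 4-fold difference, 263 (58.1%) were at the Ler level in all 3 CL_HM3 libraries, 158 (34.9%) at the Col level and 32 were mixed. The libraries were alike, with 61.1%, 62.5% and 60.7% of the genes on the Ler side. By the same measure the Ler share was 32.0% in CL_HM1, 21.2% in CL_HM2 and 22.3% in CL_HM4. These shares are a description with no test, since neighbouring genes are inherited together.

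The share varied along the genome. It was 76.6% on chromosome 1, 50.8% on chromosome 2, 84.8% on chromosome 3, 31.4% on chromosome 4 and 41.9% on chromosome 5. On chromosome 3 the other lines were at 3.26%, 0% and 18.5% for CL_HM1, CL_HM2 and CL_HM4. Neighbouring genes had the same level in 368 of 416 pairs (88.5%) in CL_HM3, and runs of at least 3 genes held 239 genes at the Ler level in 25 runs and 135 at the Col level in 12. The longest Col run was 29 genes from AT5G24205 to AT5G37175 and the longest Ler run 27 genes from AT5G42460 to AT5G51730. Chromosome 4 held Col runs of 26 genes (AT4G01270 to AT4G08035), 10 genes (AT4G09680 to AT4G14548) and 12 genes (AT4G16857 to AT4G19240). The last of these was followed by a Ler run of 21, AT4G19430 to AT4G32230.

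**Figure D5:**
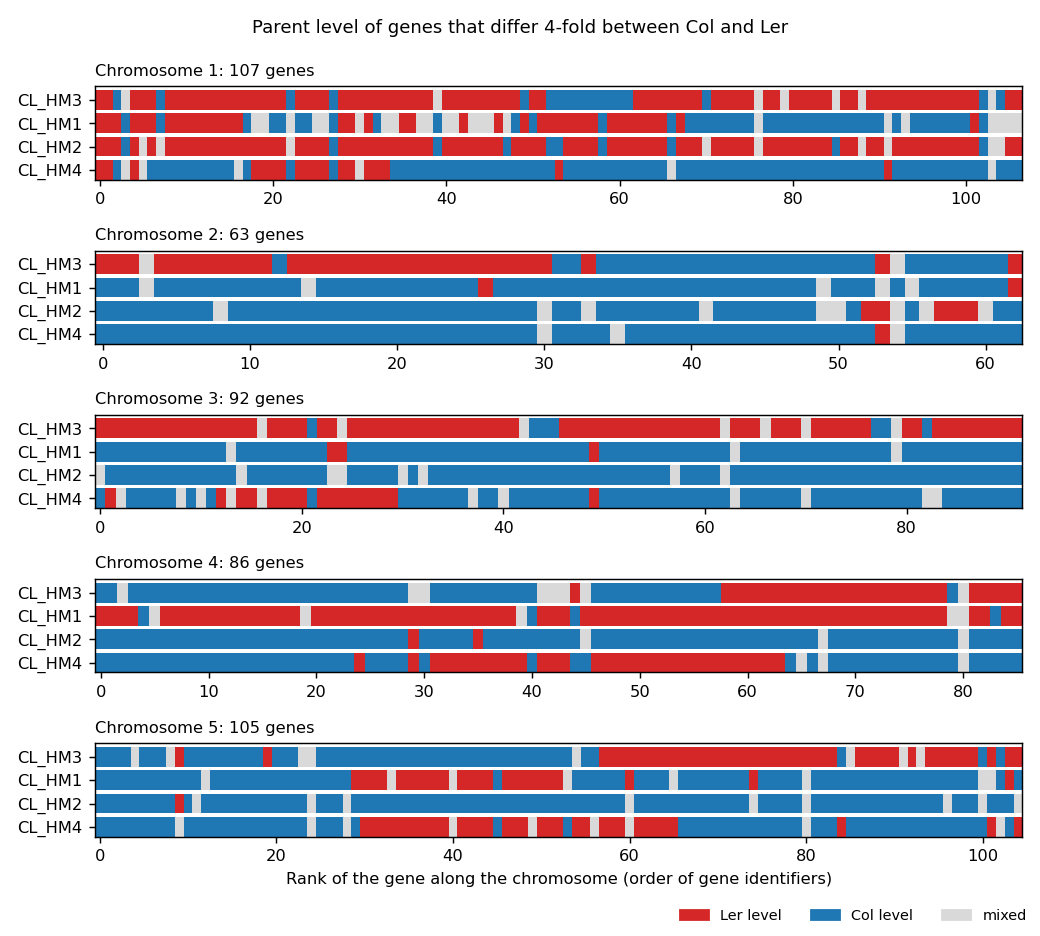
Parent level of the 453 genes that differ at least 4-fold between Col and Ler, in the order of their identifiers along each of the 5 chromosomes on the x axis, with a row for each Hybrid Mimic and colour for Ler level, Col level or mixed. CL_HM3 is at the Ler level over most of chromosome 3 and the first part of chromosome 2, where the other lines are mostly at the Col level.

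At 105 of the 453 genes CL_HM3 was at the Ler level while the other 3 lines were at the Col level, 50 of them on chromosome 3, 28 on chromosome 5, 25 on chromosome 2, 2 on chromosome 4 and 0 on chromosome 1. The reverse held at 1 gene, AT4G12917. Pseudogenes made up 1.23% of all genes tested, 18.8% of the 453 and 25.7% of the 105. Reads were aligned to the Col genome, so a low level in a Ler allele can include reads that did not align, which was not tested.

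Many of the largest falls against the MPV were of this kind, with no reads or almost none in CL_HM3 and in 1 parent. HSD2, a hydroxysteroid dehydrogenase, was at 0, 0 and 1.01 in CL_HM3, 2075, 2032 and 1823 in Col and 0, 0 and 0.810 in Ler, at least 308-fold lower than the MPV with the 3-count floor per library. AT1G14250, a nucleoside phosphatase gene, was at 0 in CL_HM3 and 1198, 395 and 1086 in Col (at least 139-fold lower). AT4G19240 went the other way between the parents, at 0 in CL_HM3, 1.07, 1.1 and 1.11 in Col and 901, 757 and 871 in Ler (at least 135-fold lower). AT2G20910, AT1G25430 and AT3G29739 were at 0 in CL_HM3 too, with bounds of 205-fold, 104-fold and 80.8-fold. Their level in CL_HM3 was that of the low parent.

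Against the mean of CL_HM1, CL_HM2 and CL_HM4, 4629 of 17579 genes (26.3%) were called in CL_HM3, 2223 higher (12.6%) and 2406 lower (13.7%). Line by line the number was 2356 (13.4%) against CL_HM2, 3380 (19.2%) against CL_HM1 and 5634 (32.0%) against CL_HM4. It was 1066 for genes called against each of the 3 in the same direction, 389 higher and 677 lower. All CL_HM3 libraries lay beyond all 9 libraries of those lines at 2674 genes (15.2%), 1190 above (6.77%) and 1484 below (8.44%). Chromosome 3 held the largest share of calls, 32.1%, and the others 23.5% to 28.2%, whereas against the MPV the share was 25.3% to 26.9% on all 5.

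Genes that differ between the parents were common among these calls. Of the 4629, 2529 (54.6%) were also called between Col and Ler, which is 50.1% of the 5050 genes (28.7%) called there. The compared groups share no library, but both comparisons come from the same fit and its shared spread, so the calls are not independent. At 2188 of the 2529 (86.5%) CL_HM3 lay on the Ler side of the other lines and at 341 on the Col side. A further 2100 were not called between the parents.

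The genes with the largest falls against the other lines were near 0 in CL_HM3 and read in those lines. They were picked by fold change, a rule that places genes near 0 in a group first, so they do not describe the calls in general. Of the 4629 calls against the other lines, 925 were at least 2-fold. HSD2, named above, had means of 1764, 1778 and 1847 in CL_HM1, CL_HM2 and CL_HM4, at least 569-fold above CL_HM3. AT5G46510, a TIR-NBS-LRR resistance gene, was at 0 in CL_HM3 and in Ler, at 469, 400.2 and 412 in Col, and at means of 442, 408 and 375 in the other lines (at least 129-fold lower). AT5G49440, AT5G48412, AT3G43690 and AT3G43955 were lower by at least 491-fold, 191-fold, 140.1-fold and 128-fold. At each of these genes Ler was near 0 as well.

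On the other side stood genes read in Ler and near 0 in Col and in the other lines. AT3G44070, a glycosyl hydrolase of family 35, was at 343, 299.5 and 323 in CL_HM3, 0, 1.1 and 0 in Col and 383, 409 and 590.2 in Ler, at least 91.2-fold above the other lines. AT2G13750 (at least 86.4-fold), AT5G20750 (87.5-fold) and AT3G43310 (17.9-fold) followed, while AT5G35935 was above both parents, at 337, 186 and 182 in CL_HM3 and 24.5, 59.2 and 8.85 in Col, at least 66.5-fold above the other lines. Among genes of the lists, SCRM, a stomatal lineage factor, was at 1459.6, 1514 and 1291 in CL_HM3 and 745, 716 and 594 on average in the other lines (log2 fold change 1.06, SE 0.08, edgeR adjusted p = 7.3e-11). MYC3 was also higher (0.85, SE 0.08, edgeR adjusted p = 4.0e-09) and HSP90.1, a stress chaperone, lower (-1.16, SE 0.25, edgeR adjusted p = 0.0012).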

How the data were processed

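Rosette leaf mRNA was sequenced from 72 libraries of 24 groups, of which the Col/Ler ones were used here. Per the labels and the study's methods, the authors aligned the reads to TAIR10 with STAR 2.5.3a, counted them per gene of the Araport11 annotation and deposited raw read counts for 37336 genes, in 1 table of whole-number counts. Which strand column of STAR was taken is not stated, so overlapping and antisense genes, and near-identical copies, are uncertain. Alignment to the Col genome can lower counts of Ler alleles.

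From these deposited counts, edgeR 4.0.16 (R 4.3.3) quasi-likelihood tests were fitted with TMM scaling and Benjamini-Hochberg adjustment over all genes tested, on genes that reached 50 counts in 1 or more libraries of the fit. All p-values come from models across all genes and are two-sided. The fit with the MPV held 27 libraries (CL_HM3, CL_HM1, CL_HM2, CL_HM4, the small lines cl_sml1 and cl_sml2, 6 F1 libraries as 1 group, and 3 MPV libraries), and the fit with Col and Ler as separate groups held 30. The mean of the 3 other lines was a contrast in the second fit. Normalized counts are TMM-scaled values at the average library size of the second fit. Standard errors (SE) were derived as the log2 fold change over the root of its F statistic, a bound on a fold uses a floor of 3 counts per library, and such bounds and the totals cover counting error only. On simulated counts for the MPV comparison (17533 genes), 96 of 100 genes changed by 1 on the log2 scale and 97 of 100 changed by 2 were recovered. The changed genes were drawn only from those with a mean over 100 counts, and all other groups were simulated with equal means. Recovery at genes with fewer counts was not simulated.

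CL_HM5 and CL_HM6, left out by the study for plant size, entered 1 alternative only. Genes were named by a rule on size: the 8 largest rises and falls outside both parents, the 6 largest other rises and falls against the MPV and the 6 largest against the other lines, each reaching a mean of 50 normalized counts on its higher side and with all CL_HM3 libraries beyond the compared ones, together with called members of 25 gene lists and 7 marker lists. The line, the lists and the rule were chosen with earlier results of these data known. Gene names came from RefSeq (TAIR10.1), which matched 37051 of 37336 genes and 673 of 674 list members. For the parent-level map, a library was at Col or Ler level by the nearer parental mean on log2(normalized count + 1). Alternatives were DESeq2 1.42.0, library size scaling, other filters, a replicate block, a 2-fold minimum, fits with fewer groups, an MPV on the log scale, and leaving out each library in turn.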

Additional observations from a re-analysis of the deposited data

Results flagged for a closer look

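The following genes were called in 1 direction in CL_HM3 against CL_HM1, CL_HM2 and CL_HM4 alike, among the genes furthest from the MPV and outside the range of the other lines. AT5G37665, a pseudogene, was at least 47.1-fold higher in CL_HM3 than in the other lines. HSD2, a hydroxysteroid dehydrogenase, was at least 569-fold lower. AT3G06355, a non-coding RNA, had a log2 fold change of -5.44 against the mean of the other lines, RLP33 one of -3.83, SEP4 one of -3.77 and AT3G18320, an F-box gene, one of -3.01. The values are from the contrast of CL_HM3 with the mean of the other 3, where edgeR called each gene. Since the genes were picked by their calls against each of those lines in the same fit, that call is no separate test. HSD2 and AT5G37665 differ between presence and near absence, and in SEP4, RLP33, AT3G06355 and AT3G18320 the CL_HM3 libraries lay below those of both parents.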

How the results depend on the processing

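The 4644 calls against the MPV became 939 with a 2-fold minimum and 2474 to 4257 when 1 library was left out, and 5160 with DESeq2, 4352 with library size scaling and 5470 with the MPV on the log scale. The 1390 genes outside both parents became 2764 at an unadjusted p, 236 with a 2-fold minimum, 661 with only the groups compared and 787 to 2113 without 1 library. The 4629 calls against the other lines became 925 with a 2-fold minimum, 2985 with CL_HM5 and CL_HM6 added, 1066 when each line had to be passed and 3214 to 4674 without 1 library. The 5050 calls between Col and Ler became 1385 with a 2-fold minimum and 2429 with only the groups compared. The Ler share of 58.1% was 54.6% at a 2-fold and 59.4% at an 8-fold parental difference, and 58.7% to 59.6% without 1 CL_HM3 library. The cause of these shifts was not tested, except that a 2-fold minimum keeps fewer genes by construction.

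In 3 values the sign turned: AT5G20750 against the MPV was at 3.38 with the MPV on the log scale, FMO1 against the other lines was at -0.017 without CL_HM3 replicate 1 (up to 2.61 without CL_HM3 replicate 3), and AOP2 against the other lines was at -0.26 with CL_HM1 left out. Of 127 named genes called against the MPV, 44 lost the call without MPV replicate 3, 28 to 30 without 1 CL_HM3 library, 10 with library size scaling and 1 with DESeq2. Same-numbered libraries had correlated deviations of 0.08, 0.003 and -0.23 between CL_HM3 and the MPV, -0.01, 0.30 and 0.18 between Col and Ler, and -0.16 to 0.39 between CL_HM3 and the other lines. No pair of groups was over 0.1 for all 3 numbers, so the numbers were not taken as pairs. With a replicate block there were 4504 calls against the MPV, 1320 outside both parents, 4498 against the other lines and 4965 between the parents. Only 3 plants of 1 line were read, and the tests used a spread shared by all groups of the fit, so small differences can have been missed.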
